A study of Mus musculus with 20 samples.

Results

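Tumours grown from POLE-mutant CT26 cells in mice given anti-PD-1 were set against tumours grown from CT26 cells carrying the empty vector under the same antibody. The 5 mutant and 5 vector tumours were taken by their labels and make up 10 of the 20 tumours of the study. The other 10, 5 mutant and 5 vector, came from mice given PBS, and they show the same genotype difference without antibody in libraries of their own. All 20 samples were bulk tumour tissue. The CT26 line is a carcinoma of the colon that arose in BALB/c mice. POLE is the catalytic subunit of DNA polymerase epsilon, which copies the leading strand and proofreads it. The study's title names another gene, CHEK2, a checkpoint kinase of the DNA damage response, so the groups are called mutant and vector here. Antibody dose, injection site, the POLE variant, the number of cell clones, the time of harvest and the animals' age are not stated in the labels. The mutation cannot be told apart from any other difference between the mutant and the vector cells.

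Values are FPKM (fragments normalized to transcript length and to the mapped fragments of the library) as deposited. Differences are log2 fold changes of FPKM + 1, mutant minus vector, given with their standard error from limma. A gene passed at a Benjamini-Hochberg adjusted p under 0.05 over the 13982 genes that reached 1 FPKM in at least 5 of 20 libraries, and "rose" and "fell" are used for such genes alone. These fold changes understate the change of genes with low levels. A gene near 0 in the other libraries reached the filter only through the mutant tumours under anti-PD-1. Its rise and lack of overlap were then partly set by the filter, which bears on low-level members of the immune lists below. Nothing in the labels says whether replicates came from separate animals, other than an animal-like number in each title, and replicate numbers here only name a tumour, so the p-values measure the spread between these samples. Vector replicate 1 stood apart, with its values summing to 566913 FPKM, where the median library summed to 355875, 8.40% of it in small RNA genes, and a mean Spearman correlation of 0.873 with the other libraries. Mutant replicates 1 and 2 correlated at 0.874 and 0.889, and the remaining 7 libraries of the comparison at 0.907 to 0.913. On the first principal component, which held 43.8% of the variance, mutant replicates 1 and 2 lay at 99.4 and 81.4, mutant replicates 3 to 5 at 39.2 to 42.7, and vector tumours at -41.7 to -5.86. These 3 libraries all carry an M before the number in their title, as do 2 further vector libraries. Within the mutant group this style of title and the 2 outlying libraries cannot be told apart. Named genes that passed under anti-PD-1 but lost their call or moved by over 1.5 times without the 3 libraries are given both ways.

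PD-1 is an inhibitory receptor of activated T cells, and its ligand PD-L1 on tumour and myeloid cells restrains their killing. Interferon-gamma from T and NK cells switches on antigen presentation, chemokines that attract T cells, guanylate-binding proteins and PD-L1 itself. A tumour with many active T cells usually shows these programmes together in bulk RNA. Under anti-PD-1, 4601 of 13982 genes (32.9%) passed, 2489 of them higher (17.8%) and 2112 lower (15.1%) in mutant tumours. These shares differed by gene type. Among 11479 protein-coding genes 2278 were higher (19.8%) and 1495 lower (13%). Among 1223 processed pseudogenes, copies that can share reads with their parent genes, 38 were higher (3.11%) and 454 lower (37.1%). Rises were larger than falls. A log2 fold change of at least 1 was reached by 1333 genes that rose, and 407 genes that fell moved by at least as much. The 5 mutant and 5 vector values did not overlap for 2789 genes (19.9%), 1694 of them higher (12.1%) and 1095 lower (7.83%). Over all genes tested the median log2 fold change was 0.00222. The balance of falls and rises depended on the filter, the scaling and the libraries kept. With a filter of 5 FPKM 1328 genes were higher and 1665 lower, and with no filter 4353 and 2045. Quantile normalization gave 2327 higher and 3625 lower genes and moved the median of all genes to -0.125, and leaving out vector replicate 1 gave 2531 and 3511. Without mutant replicate 1 or 2, 1348 or 1372 genes were lower. Fitted on the 10 libraries alone, 1619 genes were higher and 724 lower, and without the 3 outlying libraries 1627 and 1619.

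Pole (ENSMUSG00000007080, chromosome 5, 110286306 to 110337474), the gene of the labels, was lower in mutant tumours, with 1.3, 3.4, 4.75, 4.52 and 5.71 FPKM in mutant tumours, against 4.05, 7.12, 10.02, 7.32 and 9.02 FPKM in vector tumours. Mutant replicates 3 to 5 lay above vector replicate 1, so the groups overlapped, and Pole fell (log2 fold change -0.93 ± 0.18, adjusted p = 0.000963). These values do not tell the cells' own transcript from an introduced one. Chek2 (ENSMUSG00000029521, chromosome 5, 110839979 to 110874145) measured 3.33, 4.72, 5.65, 4.57 and 6.88 FPKM in mutant tumours, against 3.39, 3.99, 6.37, 5 and 6.32 FPKM in vector tumours. Its groups overlapped almost wholly, and the difference did not pass, at -0.07 ± 0.13 (adjusted p = 0.715). Epithelial markers were checked because CT26 is a carcinoma, and the defining ones were near 0 in both groups. Epcam, an epithelial adhesion molecule, was below the filter, with 0.159, 0.13, 0, 0.119 and 0.0934 FPKM in mutant tumours, against 0.213, 0, 0, 0.471 and 0.84 FPKM in vector tumours. Cdh1, the epithelial cadherin, was below it too, at 0.209 to 0.497 FPKM in mutant tumours, against 0.115 to 0.638 FPKM in vector tumours. Of the 8 epithelial genes tested, the simple-epithelium keratins Krt18 (log2 fold change -1.78, adjusted p = 0.000739) and Krt19 (log2 fold change -0.92, adjusted p = 0.0135) fell and 6 did not pass. Over all genes tested 15.1% fell. Krt18 fell with -0.89 without the 3 outlying libraries, and Krt19 did not pass among M-titled or among number-titled libraries alone.

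All 16 tested T cell genes rose, with a median log2 fold change of 2.36, and for all 16 every mutant tumour lay above every vector tumour. The list held 20 genes, and those below the filter were not tested. For members near 0 in nearly all other libraries, such as Cd28, the filter itself favoured this result. Cd3d, a signalling chain of the T cell receptor complex, measured 17.4, 9.2, 9.69, 6.71 and 7.77 FPKM in mutant tumours, against 0.455, 0.666, 0.398, 0.558 and 0.23 FPKM in vector tumours. Mutant replicate 1 was highest, and Cd3d rose by 2.97 ± 0.25 (adjusted p = 1.24e-06). The constant segments of the receptor chains rose further, Trac by 3.70 ± 0.37 (adjusted p = 2.97e-06) and Trbc2 by 3.90 ± 0.41 (adjusted p = 5.4e-06). Cd28, the costimulatory receptor for B7 ligands, measured 3.05, 3.57, 3.33, 3.11 and 3.16 FPKM in mutant tumours, against 0.0333, 0.139, 0.23, 0.309 and 0.127 FPKM in vector tumours. The mutant values lay in a narrow band far above the vector values, and Cd28 rose by 1.88 ± 0.15 (adjusted p = 9.95e-07). Behind the receptor, the kinase Zap70 rose by 2.09 (adjusted p = 1.24e-06). The T cell surface gene Ms4a4b rose by 2.86 (adjusted p = 1.24e-06). As a score, the mean log2(FPKM + 1) of the 16 genes, the list stood at 3.34 ± 0.33 in mutant and 0.95 ± 0.22 in vector tumours (SD, n = 5 each). In bulk tissue, fewer cells of a type and less RNA per cell cannot be told apart, and this holds for each cell type below.

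The CD8 coreceptor and the killing genes rose with the T cell receptor. Of 22 CD8 and cytotoxic genes 17 rose and none fell, with a median of 2.18. Cd8a measured 14.9, 12.8, 16.5, 14.3 and 16 FPKM in mutant tumours, against 0.0906, 1.1, 0.121, 1.29 and 0.498 FPKM in vector tumours. Mutant tumours were alike, and in vector tumours Cd8a was near 0 in replicates 1 and 3. Cd8a rose by 3.45 ± 0.37 (adjusted p = 5.4e-06) and its partner chain Cd8b1 by 3.65 ± 0.32 (adjusted p = 1.24e-06). Cd4, the coreceptor of helper T cells, measured 5.22, 4.1, 0.99, 1.9 and 2.82 FPKM in mutant tumours, against 0.0697, 0.115, 0.697, 0.49 and 0.202 FPKM in vector tumours. Mutant replicates 1 and 2 were highest for Cd4, mutant replicate 3 came close to vector replicate 3, and Cd4 rose by 1.58 ± 0.24 (adjusted p = 9.84e-05). Ifng, which encodes interferon-gamma, measured 5.1, 9.17, 8.55, 8.23 and 9.07 FPKM in mutant tumours, against 0.0342, 0.384, 0.391, 1.41 and 0.281 FPKM in vector tumours. It was lowest in mutant replicate 1 and highest in replicate 4 among vector tumours, and rose by 2.64 ± 0.32 (adjusted p = 1.61e-05).

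Perforin (Prf1), which opens the target cell membrane to granzymes, measured 25.2, 26.5, 32.2, 29.9 and 28.7 FPKM in mutant tumours, against 3.02, 5.4, 2.3, 15.6 and 9.82 FPKM in vector tumours. It rose by 2.23 ± 0.50 (adjusted p = 0.00235). Gzmb, a granzyme that starts apoptosis in the target, measured 129.6, 65.1, 57.4, 65.6 and 63.8 FPKM in mutant tumours, against 7.28, 8, 7.19, 45.8 and 19.6 FPKM in vector tumours, a rise of 2.52 ± 0.60 (adjusted p = 0.00368). Vector replicates 4 and 5 were above the other vector tumours for both genes, and neither gene passed among the M-titled libraries alone. Nkg7, a protein of cytotoxic granules, rose by 4.03 ± 0.42 (adjusted p = 4.55e-06). The 5 members that did not pass were the clustered granzymes Gzmc to Gzmg on chromosome 14, which resemble each other and can share reads. Gzmc had the lowest log2 fold change of them, -1.46 (adjusted p = 0.107), and Gzmf the highest, 0.64 (adjusted p = 0.604).

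**Figure D1:**
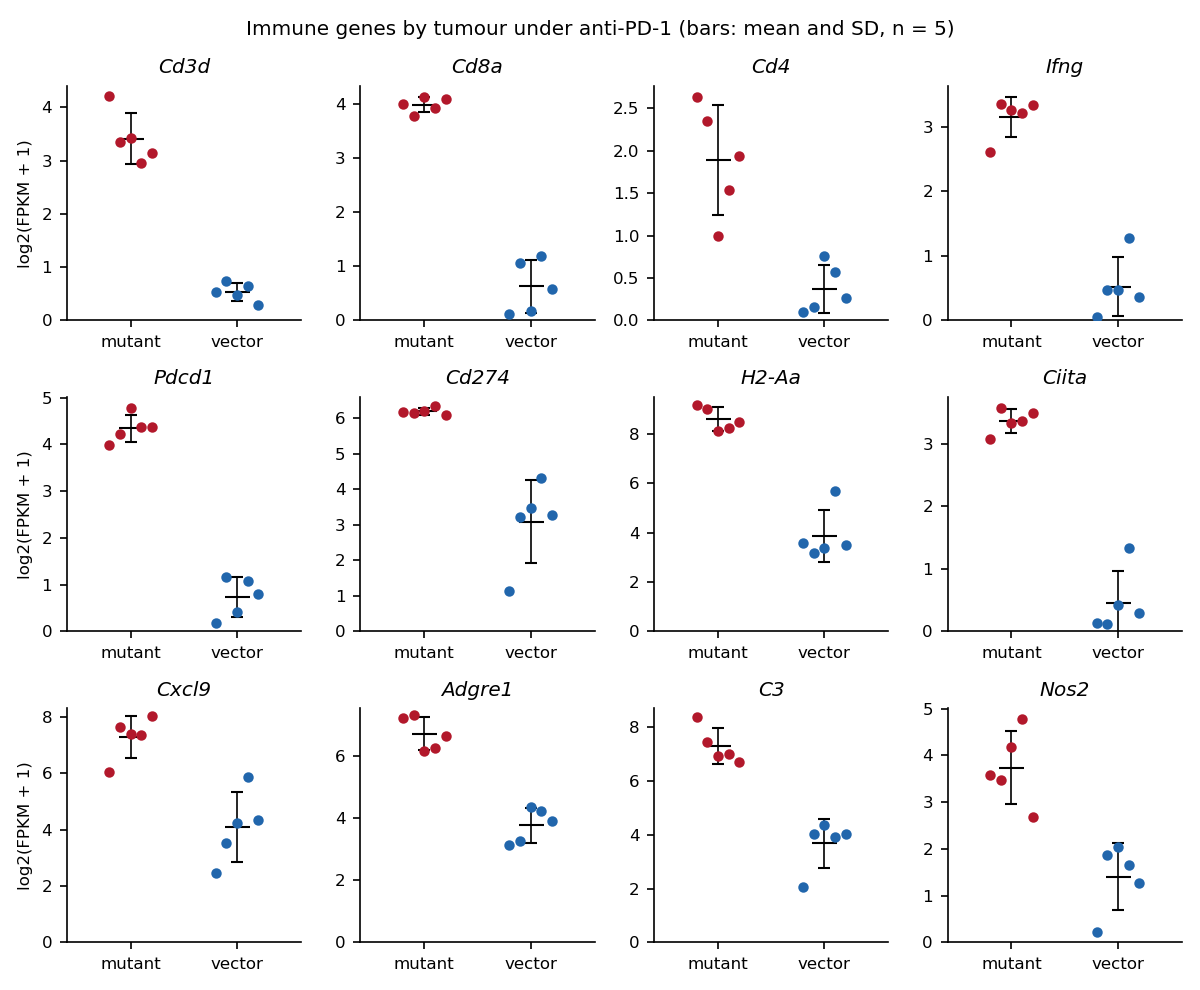
Level of 12 immune genes as log2(FPKM + 1) in each of 5 mutant (left, red) and 5 vector (right, blue) tumours under anti-PD-1, with points in replicate order and bars for mean and SD. No mutant value overlaps a vector value for these genes, and the vector tumour closest to the mutants is replicate 4 for Ifng, Cd274, H2-Aa, Ciita and Cxcl9.

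Inhibitory receptors and their ligands were higher in mutant tumours as well, and all 13 tested checkpoint and exhaustion genes rose, with a median of 1.94. Pdcd1, which encodes PD-1, the target of the antibody, measured 14.9, 17.6, 26.6, 19.8 and 19.6 FPKM in mutant tumours, against 0.131, 1.25, 0.343, 1.13 and 0.744 FPKM in vector tumours. Every mutant tumour was far above every vector tumour, and Pdcd1 rose by 3.69 ± 0.35 (adjusted p = 1.94e-06). Cd274, the gene of PD-L1, measured 71.6, 69.9, 72.2, 79.6 and 66.9 FPKM in mutant tumours, against 1.22, 8.29, 10.2, 19 and 8.58 FPKM in vector tumours. Mutant tumours were alike, vector tumours spread widely with replicate 4 highest, and Cd274 rose by 3.08 ± 0.43 (adjusted p = 4.31e-05). Pdcd1lg2, the gene of the other PD-1 ligand PD-L2, rose by 2.87 (adjusted p = 2.59e-06). Among inhibitory receptors of chronically stimulated T cells, Lag3 rose by 2.68 (adjusted p = 2.59e-06), Havcr2 (TIM-3) by 2.66 (adjusted p = 1.24e-06) and the CD155 receptor Cd96 by 1.94 (adjusted p = 3.57e-06). Ctla4, which competes with Cd28 for B7 ligands, rose by 1.92 (adjusted p = 5.4e-06). Of 5 regulatory T cell genes tested 4 rose, among them Il2ra, the alpha chain of the interleukin-2 receptor, by 1.09 (adjusted p = 0.000287). Foxp3, the factor that defines these cells, was below the filter and measured 1.05, 1.31, 0.56, 0.481 and 0.859 FPKM in mutant tumours, against 0.0457, 0.11, 0.266, 0.126 and 0.0926 FPKM in vector tumours.

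NK, B cell and dendritic cell lists were also higher. Of 10 NK genes 9 rose, with a median of 1.34, among them the receptor gene Klre1 by 1.65 (adjusted p = 5.4e-06). Cxcr6, a chemokine receptor of tissue T and NK cells, measured 30.7, 19, 17.9, 16.9 and 16.8 FPKM in mutant tumours, against 0, 1.07, 0.401, 0.924 and 0.513 FPKM in vector tumours. It was listed at 0 in vector replicate 1, highest in mutant replicate 1, and rose by 3.86 ± 0.36 (adjusted p = 1.71e-06). Of 4 B and plasma cell genes 3 rose. Cd22, an inhibitor of the B cell receptor, rose by 1.73 (adjusted p = 5.4e-06) and Jchain, the joining chain of immunoglobulins, by 1.74 (adjusted p = 0.000206). Both were highest in mutant replicates 1 and 2, and without the 3 outlying libraries Jchain rose by 1.16. Among 11 dendritic cell genes 9 rose, with a median of 1.30. Xcr1, which marks cross-presenting dendritic cells, measured 3.36, 4.12, 4.61, 2.76 and 5.41 FPKM in mutant tumours, against 0.111, 0.163, 0.109, 0.602 and 0.0937 FPKM in vector tumours. Vector replicate 4 stood above the other vector tumours, and Xcr1 rose by 2.09 ± 0.26 (adjusted p = 1.66e-05). Ccr7, which guides mature dendritic cells to lymph nodes, rose by 1.48 (adjusted p = 0.000248). Of these lists, 16 T cell, 16 CD8 and cytotoxic, 13 checkpoint, 7 NK and 8 dendritic cell genes rose without the 3 outlying libraries.

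MHC class II genes held the largest rises by the naming rule. All 9 tested members of the class II list rose without overlap between the groups, with a median of 4.50. H2-Eb1 (ENSMUSG00000060586, chromosome 17, 34305867 to 34316674) measured 633, 577, 314, 362 and 385 FPKM in mutant tumours, against 12.3, 7.72, 10.3, 57.9 and 10.4 FPKM in vector tumours. Vector replicate 4 was well above the other vector tumours and still far below every mutant tumour, and H2-Eb1 rose by 5.003 ± 0.61 (adjusted p = 1.43e-05). H2-Aa (ENSMUSG00000036594, chromosome 17, 34282744 to 34287823) and H2-Ab1 (ENSMUSG00000073421, chromosome 17, 34257689 to 34269419) encode the I-A molecule that presents peptide to CD4 T cells. H2-Aa rose by 4.92 ± 0.60 (adjusted p = 1.43e-05) and H2-Ab1 by 4.89 ± 0.60 (adjusted p = 1.49e-05). Cd74, the invariant chain that guides class II molecules to endosomes, measured 1297, 1359.8, 872, 921 and 931 FPKM in mutant tumours, against 29.6, 44, 38.7, 169 and 41.7 FPKM in vector tumours. It rose by 4.50 ± 0.54 (adjusted p = 1.34e-05). Ciita, the transactivator that class II genes need, measured 7.39, 10.8, 9.08, 9.26 and 10.2 FPKM in mutant tumours, against 0.0934, 0.0809, 0.346, 1.51 and 0.222 FPKM in vector tumours. Replicate 4 was again the highest vector tumour, and Ciita rose by 2.95 ± 0.34 (adjusted p = 9.91e-06).

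Of 24 interferon-gamma response genes 23 rose, with a median of 2.68, and Irf1 did not pass, at 1.19 (adjusted p = 0.0673). Ubd, a ubiquitin-like modifier induced by interferon-gamma, measured 54.5, 66.1, 41.7, 45.3 and 58.1 FPKM in mutant tumours, against 1.65, 3.31, 5.24, 14.9 and 3.51 FPKM in vector tumours. It rose by 3.29 ± 0.44 (adjusted p = 3.18e-05). Psmb9, a catalytic subunit of the immunoproteasome, rose by 1.90 ± 0.32 (adjusted p = 0.000285), and the immunity-related GTPase Igtp by 2.83 ± 0.50 (adjusted p = 0.000351). Cxcl9, a ligand of CXCR3 on activated T cells, measured 65.6, 201, 168, 161 and 259.7 FPKM in mutant tumours, against 4.5, 10.6, 17.9, 57.5 and 19.4 FPKM in vector tumours. Mutant replicate 1 and vector replicate 4 lay close together, and Cxcl9 rose by 3.20 ± 0.65 (adjusted p = 0.00119). Another CXCR3 ligand, Cxcl10, rose by 1.68 ± 0.46 (adjusted p = 0.009), and did not pass without the 3 outlying libraries, where it stood at 1.65. Tgtp1, an interferon-induced GTPase that can share reads with its copy Tgtp2, rose by 2.94 ± 0.56 (adjusted p = 0.000759), with mutant replicate 1 below vector replicate 4. Leaving out the 3 outlying libraries, 21 of the 24 genes rose, with a median of 3.01. Among the M-titled libraries alone, 2 mutant and 3 vector, 3 of 24 passed at a median of 2.19, and among the number-titled ones, 3 and 2, all 24 passed at a median of 3.08.

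Promoters of the class II and interferon-gamma response members are printed because these genes moved together and because the elements through which interferon-gamma and class II factors act are known. Each line gives the 250 bases before the RefSeq start (GRCm38.p6), 5′ to 3′ in the direction of the gene. Capitals mark a GAS pattern (TTCNNNGAA, the interferon-gamma activated site), an ISRE core (GAAA, any 2 bases and GAAA, or its reverse TTTC, any 2 bases and TTTC, the element of interferon-regulated factors) or a Y box (CTGATTGG or its reverse CCAATCAG, the NF-Y element of class II promoters). H2-Aa and H2-Eb1 were added after their values were seen. The others are the response genes with the smallest p under anti-PD-1 among those found in RefSeq.
H2-Aa, chr17:34287824-34288073, minus strand: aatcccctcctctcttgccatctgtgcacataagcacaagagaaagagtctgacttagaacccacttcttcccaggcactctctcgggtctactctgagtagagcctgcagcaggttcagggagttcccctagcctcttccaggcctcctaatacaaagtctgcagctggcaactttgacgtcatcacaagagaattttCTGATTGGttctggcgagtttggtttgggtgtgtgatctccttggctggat
H2-Eb1, chr17:34305617-34305866, plus strand: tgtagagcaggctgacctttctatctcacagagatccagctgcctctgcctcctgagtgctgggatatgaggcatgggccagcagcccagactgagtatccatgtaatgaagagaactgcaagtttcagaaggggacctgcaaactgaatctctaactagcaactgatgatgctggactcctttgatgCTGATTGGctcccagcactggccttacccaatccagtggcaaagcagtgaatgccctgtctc
Psmb9, chr17:34187331-34187580, minus strand: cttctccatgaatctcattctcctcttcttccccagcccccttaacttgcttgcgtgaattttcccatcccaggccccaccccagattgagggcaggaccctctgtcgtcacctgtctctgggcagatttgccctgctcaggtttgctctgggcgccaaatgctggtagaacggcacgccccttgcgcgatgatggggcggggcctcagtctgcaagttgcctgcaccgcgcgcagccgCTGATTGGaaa
Igtp, chr11:58199306-58199555, plus strand: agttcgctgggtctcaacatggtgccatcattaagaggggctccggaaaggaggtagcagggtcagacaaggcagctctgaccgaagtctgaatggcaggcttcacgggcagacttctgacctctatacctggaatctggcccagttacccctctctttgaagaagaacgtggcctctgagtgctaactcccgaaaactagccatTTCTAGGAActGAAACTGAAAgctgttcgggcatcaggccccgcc
Gbp5, chr3:142496684-142496933, plus strand: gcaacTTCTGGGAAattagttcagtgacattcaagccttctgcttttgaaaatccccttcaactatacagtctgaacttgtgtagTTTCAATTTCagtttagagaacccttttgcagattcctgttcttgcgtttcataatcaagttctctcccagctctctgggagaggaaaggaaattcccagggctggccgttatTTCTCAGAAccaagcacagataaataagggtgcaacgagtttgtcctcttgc
Ubd, chr17:37193642-37193891, plus strand: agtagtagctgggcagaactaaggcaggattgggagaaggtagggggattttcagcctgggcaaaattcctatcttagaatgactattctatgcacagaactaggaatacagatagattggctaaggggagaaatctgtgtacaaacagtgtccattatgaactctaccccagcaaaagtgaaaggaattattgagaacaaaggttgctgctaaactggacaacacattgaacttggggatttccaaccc
H2-Aa and H2-Eb1 each hold 1 Y box, which begins 51 and 62 bases before the start, and Psmb9 holds 1 that begins 11 bases before it. Igtp holds a GAS pattern and an ISRE core next to each other, 45 and 34 bases before the start. Gbp5, a guanylate-binding protein that rose by 3.02 (adjusted p = 0.000354) but did not pass among the M-titled libraries alone, holds 2 GAS patterns and an ISRE core on the opposite strand. Ubd holds none of the 3 patterns in this window. Over all 32851 promoters of the table, 7.02% hold the GAS pattern, 2.98% the ISRE core and 3.83% the Y box. Counted by gene, as in what follows, the shares over all 9373 tested genes with an entry were 7.28%, 3.49% and 6.64%. Among the 16 response genes with an entry, 12 hold an ISRE core, 7 a GAS pattern and 3 a Y box. Among the 5 class II genes with an entry, a Y box was found for 2, the pair printed here, a GAS pattern for 1 and an ISRE core for none. The ISRE core was found for 7.11% of 1801 genes that rose, 2.94% of 1226 that fell and 2.57% of 6346 that did not pass. For the GAS pattern these shares were 9.55%, 7.26% and 6.63%, and for the Y box 5.27%, 7.5% and 6.85%. A match describes letters, not a bound site, and the shares were not tested.

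Class I presentation and type I interferon genes rose too, with medians below that of class II. Of 22 class I genes 19 rose, with a median of 1.36. B2m, the light chain of class I molecules, measured 4256, 3805, 3815, 3539 and 3627 FPKM in mutant tumours, against 1405, 1875, 1486, 2294 and 1931 FPKM in vector tumours. It rose by 1.14 ± 0.17 (adjusted p = 7.82e-05). The class I heavy chains also rose, H2-K1 by 1.51 (adjusted p = 0.000392) and H2-D1 by 1.14 (adjusted p = 6.82e-05). The 3 members that did not pass were the proteasome activator gene Psme2 (log2 fold change 0.62, adjusted p = 0.0842) and a pair of chaperones. Levels of the polymorphic H2 genes are uncertain in both groups, since the BALB/c reads were set against mm10, a C57BL/6 genome, per the submitters' processing notes. Of 25 type I interferon response genes 24 rose, with a median of 1.44, and Oasl1 did not pass, at 0.53 (adjusted p = 0.186). Irf7, the factor that amplifies type I interferon, rose by 2.17 (adjusted p = 0.000129) and the antiviral effector Ifit3 by 1.97 (adjusted p = 8.11e-05). Among the M-titled libraries alone, 8 of the 22 class I and 10 of the 25 type I genes passed, and none fell.

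Sensors of cytosolic DNA rose in 9 of 13 members. Samhd1, which degrades nucleotides and limits such DNA, measured 72.5, 81.5, 75.8, 75.6 and 83.7 FPKM in mutant tumours, against 9.02, 14.3, 18.7, 31.8 and 18.1 FPKM in vector tumours. Mutant tumours were alike and vector replicate 4 was highest of its group, and Samhd1 rose by 2.12 ± 0.29 (adjusted p = 4.04e-05). The difference of the sensor Cgas did not pass, at 0.28 (adjusted p = 0.279). Of 14 pyroptosis and necroptosis genes 9 rose and 1 fell, and the pore-forming gasdermins went opposite ways. Gsdmd, cleaved by inflammatory caspases, measured 48, 48.3, 36.4, 37.1 and 39.1 FPKM in mutant tumours, against 8.12, 12.3, 12.3, 16.3 and 15.7 FPKM in vector tumours. It rose by 1.64 ± 0.21 (adjusted p = 2.5e-05). Gsdme, cleaved by caspase-3 and granzyme B, measured 0.675, 0.881, 1.26, 1.31 and 1.25 FPKM in mutant tumours, against 2.73, 2.35, 2.1, 2.66 and 2.26 FPKM in vector tumours. It fell without overlap (log2 fold change -0.72 ± 0.12, adjusted p = 0.000277), and stood at -0.48 without the 3 outlying libraries.

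Of 23 chemokines 16 rose, 6 did not pass and 1 fell, with a median of 1.68. Ccl5, an attractant of T cells and monocytes, measured 144, 100.98, 64.1, 73.1 and 42.7 FPKM in mutant tumours, against 6.79, 2.82, 2.43, 5.16 and 1.88 FPKM in vector tumours. Every mutant tumour was far above every vector tumour, and Ccl5 rose by 4.34 ± 0.44 (adjusted p = 3.57e-06). Cxcl16, the ligand of Cxcr6, rose by 1.74 (adjusted p = 2.11e-05). The B cell attractant Cxcl13 measured 26.3, 33.5, 4.44, 5.95 and 13.7 FPKM in mutant tumours, against 0, 0.189, 0.305, 0.278 and 0.492 FPKM in vector tumours. It was highest in mutant replicates 1 and 2, and rose by 3.61 ± 0.45 (adjusted p = 1.72e-05). The chemokine that fell was Ccl12, a monocyte attractant, with 148, 95.7, 53.5, 52 and 90.4 FPKM in mutant tumours, against 249.5, 104, 166, 161 and 149 FPKM in vector tumours. Its groups overlapped, and it fell (log2 fold change -0.95 ± 0.29, adjusted p = 0.0169), though not in the fit on the 10 libraries alone, among the M-titled libraries or with a skeletal muscle score as covariate. With the 3 outlying libraries left out, 10 chemokines rose and 3 fell.

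Of 23 cytokine and receptor genes 16 rose and 1 fell. Il27, a cytokine of antigen-presenting cells, measured 3.93, 5.37, 4.66, 5.25 and 5.79 FPKM in mutant tumours, against 0, 0.512, 0.524, 0.682 and 0.786 FPKM in vector tumours. It was listed at 0 in vector replicate 1, and rose by 2.01 ± 0.20 (adjusted p = 3.61e-06). Il18bp, a secreted inhibitor of interleukin-18 that interferon-gamma induces, rose by 2.78 ± 0.29 (adjusted p = 4.55e-06). Il11, a cytokine of the IL-6 family, measured 2.38, 3.16, 6.65, 10.1 and 4.35 FPKM in mutant tumours, against 4.68, 20.2, 12.7, 9.08 and 13.2 FPKM in vector tumours. It fell (log2 fold change -1.17 ± 0.33, adjusted p = 0.0111), and did not pass without the 3 outlying libraries, where it stood at -1.07, or with the muscle covariate. Of 9 immunometabolic enzymes 5 rose and 1 fell. Nos2, which makes nitric oxide, measured 11, 10.05, 17, 26.6 and 5.46 FPKM in mutant tumours, against 0.161, 2.67, 3.09, 2.15 and 1.41 FPKM in vector tumours. It rose by 2.25 ± 0.40 (adjusted p = 0.000364). Acod1, which makes itaconate in activated macrophages, rose by 2.84 ± 0.41 (adjusted p = 5.79e-05). Arg1, which consumes arginine, did not pass, at 0.72 (adjusted p = 0.263). Ptges, which makes prostaglandin E2, measured 7.23, 18.8, 27.4, 28.5 and 25.7 FPKM in mutant tumours, against 40.2, 38.6, 43.7, 33.5 and 43.9 FPKM in vector tumours. It was the enzyme that fell (log2 fold change -1.05 ± 0.23, adjusted p = 0.0023), and its groups did not overlap. It fell with -0.54 without the 3 outlying libraries.

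Macrophage genes rose in 14 of 20 members, with a median of 1.68. Adgre1, the gene of the macrophage marker F4/80, measured 147, 159.7, 70.4, 74.6 and 99 FPKM in mutant tumours, against 7.69, 8.52, 19.2, 17.9 and 14.1 FPKM in vector tumours. Mutant replicates 1 and 2 were highest, the other mutant tumours were still above every vector tumour, and Adgre1 rose by 2.97 ± 0.35 (adjusted p = 1.15e-05). Mertk, a receptor for dying cells, rose by 1.84 (adjusted p = 2.37e-05) and, without the 3 outlying libraries, by 1.18. Lysosomal proteases rose in 15 of 18 members. Ctss, which trims the invariant chain in antigen-presenting cells, measured 2304, 1554, 707, 737 and 875 FPKM in mutant tumours, against 138, 139, 193, 370.4 and 236 FPKM in vector tumours. It rose by 2.56 ± 0.33 (adjusted p = 2.51e-05). Complement genes rose in 14 of 16 members, with a median of 2.12. Serping1, the inhibitor of the C1 proteases, measured 372, 294, 206, 184 and 201 FPKM in mutant tumours, against 8.9, 8.29, 23.7, 14.9 and 15.8 FPKM in vector tumours. It rose by 4.13 ± 0.42 (adjusted p = 4.4e-06). C3, the central complement component, rose by 3.69 ± 0.56 (adjusted p = 0.0001) and C4b by 3.16 ± 0.43 (adjusted p = 3.76e-05). Without the 3 outlying libraries, 12 macrophage genes rose and 2 fell, 11 lysosomal genes rose and 1 fell, and 12 complement genes rose.

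Neutrophil genes rose in 6 of 13 members, and this rested on a few libraries. Csf3r, the receptor for granulocyte colony-stimulating factor, measured 33.6, 30.4, 14.6, 19.4 and 12.1 FPKM in mutant tumours, against 0.812, 1.77, 5.56, 2.4 and 2.41 FPKM in vector tumours. It rose by 2.71 ± 0.38 (adjusted p = 4.86e-05). S100a9, an abundant neutrophil protein, measured 399, 118, 55.4, 128 and 8.84 FPKM in mutant tumours, against 14.5, 31.5, 54.5, 23.3 and 19.1 FPKM in vector tumours. Mutant values spread from the lowest to the highest of all 10, and S100a9 did not pass, at 1.58 ± 0.79 (adjusted p = 0.135). It passed without mutant replicate 5 and, at 3.24, among the M-titled libraries alone. Among the number-titled libraries S100a9 stood at 0.32, and without the 3 outlying libraries at 0.03. When the 3 outlying libraries were left out, 1 neutrophil gene rose and 1 fell. Outside the lists, Trpm2, a calcium channel gated by ADP-ribose, was among the rises with the smallest p, with 5.01, 4.03, 2.68, 3.37 and 2.91 FPKM in mutant tumours, against 0.125, 0.205, 0.263, 0.568 and 0.417 FPKM in vector tumours. It rose by 1.82 ± 0.15 (adjusted p = 1.24e-06). A pair of further genes were among the largest rises. Fgl2, a fibrinogen-like immune regulator, rose by 3.80 ± 0.53 (adjusted p = 4.23e-05) and AW112010, an interferon-induced transcript, by 3.91 ± 0.53 (adjusted p = 3.11e-05).

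**Figure D2:**
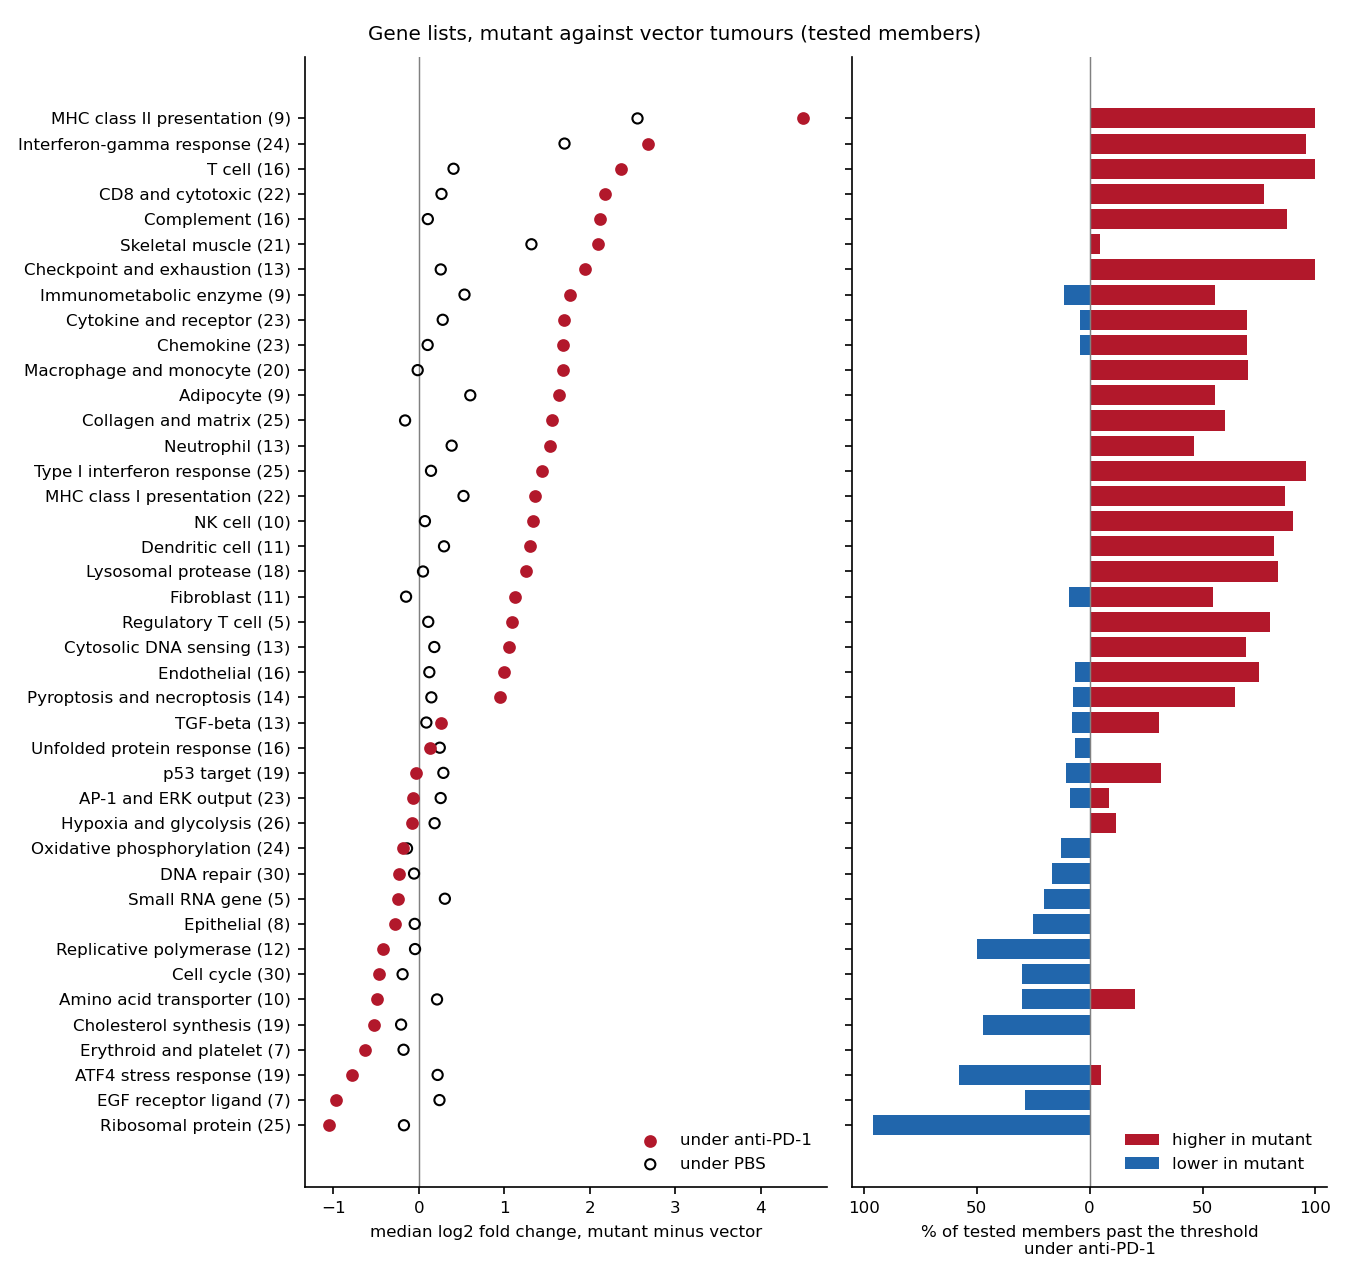
Left, median log2 fold change (mutant minus vector) of each gene list with at least 5 tested members, under anti-PD-1 (filled) and under PBS (open); right, percent of tested members that rose (red) or fell (blue) under anti-PD-1. Immune lists hold most of the highest medians, led by MHC class II at 4.50. Skeletal muscle (2.09, 1 of 21 members higher), adipocyte (1.635) and collagen and matrix (1.555) lists lie among them. Ribosomal protein genes lie at the bottom with 24 of 25 members lower.

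Matrix, fibroblast, endothelial and adipocyte genes had their highest list scores in mutant replicates 1 and 2. Of 25 collagen and matrix genes 15 rose, with a median of 1.555. Col1a1, a chain of type I collagen, measured 600.0, 390.1, 66.4, 84 and 56.1 FPKM in mutant tumours, against 23.3, 20.9, 86.6, 29.7 and 27.3 FPKM in vector tumours. Mutant replicates 3 to 5 lay below vector replicate 3. Col1a1 rose by 2.21 ± 0.68 (adjusted p = 0.0185), and did not pass without mutant replicate 1 or without mutant replicate 2 (adjusted p over the alternatives 0.00297 to 0.558). Col1a1 stood at 0.58 without the 3 outlying libraries. Fbn1, a microfibril protein, rose by 2.26 (adjusted p = 0.00422) and did not pass without the 3 libraries, at 1.05. Thbs2, a matrix thrombospondin, measured 38.8, 58.2, 72.8, 77.6 and 43.6 FPKM in mutant tumours, against 2.75, 24.5, 20.9, 15 and 28.6 FPKM in vector tumours, without overlap. It rose by 1.76 ± 0.48 (adjusted p = 0.00921), and its mutant values were lowest in replicate 1. Only 2 of the 25 genes rose without the 3 outlying libraries, and the median was then 0.05. Of 11 fibroblast genes 6 rose and 1 fell, in the fit on the 10 libraries alone 2 rose, and without the 3 outlying libraries 1 rose and 1 fell, at a median of 0.11. Thy1, a surface protein of fibroblasts and T cells, rose by 1.80 (adjusted p = 0.000145). Pdgfrb, a receptor of fibroblasts and pericytes, rose by 0.78 (adjusted p = 0.0155) and did not pass without either of the same mutant replicates (adjusted p over the alternatives 0.00211 to 0.981). Without the 3 libraries it stood at 0.15. S100a4, also a gene of motile tumour cells, was the fibroblast gene that fell (log2 fold change -1.26, adjusted p = 0.0291), and it did not pass in 9 of 24 alternatives, among them those without vector replicate 1, mutant replicate 1 or mutant replicate 2 (adjusted p over the alternatives 0.00896 to 0.677). Without the 3 libraries it stood at -0.14. Of 13 TGF-beta genes 4 rose, where 17.8% of all genes rose, and 2 rose without the 3 libraries. Ltbp1, which stores latent TGF-beta in the matrix, fell (log2 fold change -1.09, adjusted p = 0.0135). Ltbp1 stood at -0.63 without the 3 libraries, and did not pass without mutant replicate 1, with no model term for title style, in the 10 libraries alone or with the muscle covariate (adjusted p over the alternatives 0.00365 to 0.0655).

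Endothelial genes rose in 12 of 16 members, in 5 when the 10 libraries of the comparison were fitted alone, and in 4 without the 3 outlying ones. Pecam1, an endothelial junction protein, measured 45.7, 32.4, 12.5, 15.2 and 13.6 FPKM in mutant tumours, against 3.79, 7.19, 11, 7.05 and 11.3 FPKM in vector tumours. It rose by 1.39 ± 0.32 (adjusted p = 0.00268), and did not pass without the 3 libraries, at 0.54. Icam1, an adhesion molecule for leukocytes that cytokines induce, measured 20.8, 17.7, 9.8, 12.1 and 11.1 FPKM in mutant tumours, against 1.45, 1.64, 2.62, 4.78 and 2.18 FPKM in vector tumours. It rose by 2.18 ± 0.31 (adjusted p = 5.31e-05). Lyve1, a marker of lymphatic vessels and some macrophages, measured 11.3, 1.79, 0.552, 0.798 and 0.195 FPKM in mutant tumours, against 9.46, 2.38, 17.2, 10.4 and 8.01 FPKM in vector tumours. It was the endothelial gene that fell (log2 fold change -1.83 ± 0.55, adjusted p = 0.0155), although mutant replicate 1 was above 4 of the vector tumours, and it did not pass without vector replicate 3 (adjusted p over the alternatives 2.87e-05 to 0.77). Lyve1 stood at -2.92 without the 3 outlying libraries. Of 9 adipocyte genes 5 rose, and without the 3 libraries 2 did. Lpl, a lipase of fat and muscle, measured 32.6, 27.6, 3.83, 4.96 and 7.06 FPKM in mutant tumours, against 1.04, 0.508, 2.05, 1.26 and 0.622 FPKM in vector tumours. It rose by 2.67 ± 0.51 (adjusted p = 0.000726). Pparg, a factor of fat cells and macrophages, rose by 1.47 ± 0.28 (adjusted p = 0.000611). Without the 3 libraries Lpl rose by 1.68 and Pparg by 0.83. Of 21 skeletal muscle genes 1 rose, while their median was 2.09. Mb, the myoglobin gene, rose by 2.38 ± 0.71 (adjusted p = 0.0155) and did not pass without mutant replicate 2 or without the 3 libraries (adjusted p over the alternatives 0.00325 to 0.259). Without the 3 libraries Mb stood at 2.19. Scored over its tested genes, muscle stood at 3.93 ± 1.25 in mutant and at 2.19 ± 1.72 in vector tumours (SD, n = 5 each), and it ran from 2.67 to 5.89 in mutant and from 0.55 to 4.42 in vector tumours. With this score as a covariate 3408 genes passed, among them 4 collagen and matrix genes and all 16 T cell genes. None of 7 erythroid and platelet genes passed, and all 7 fell among the number-titled libraries alone.

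**Figure D3:**
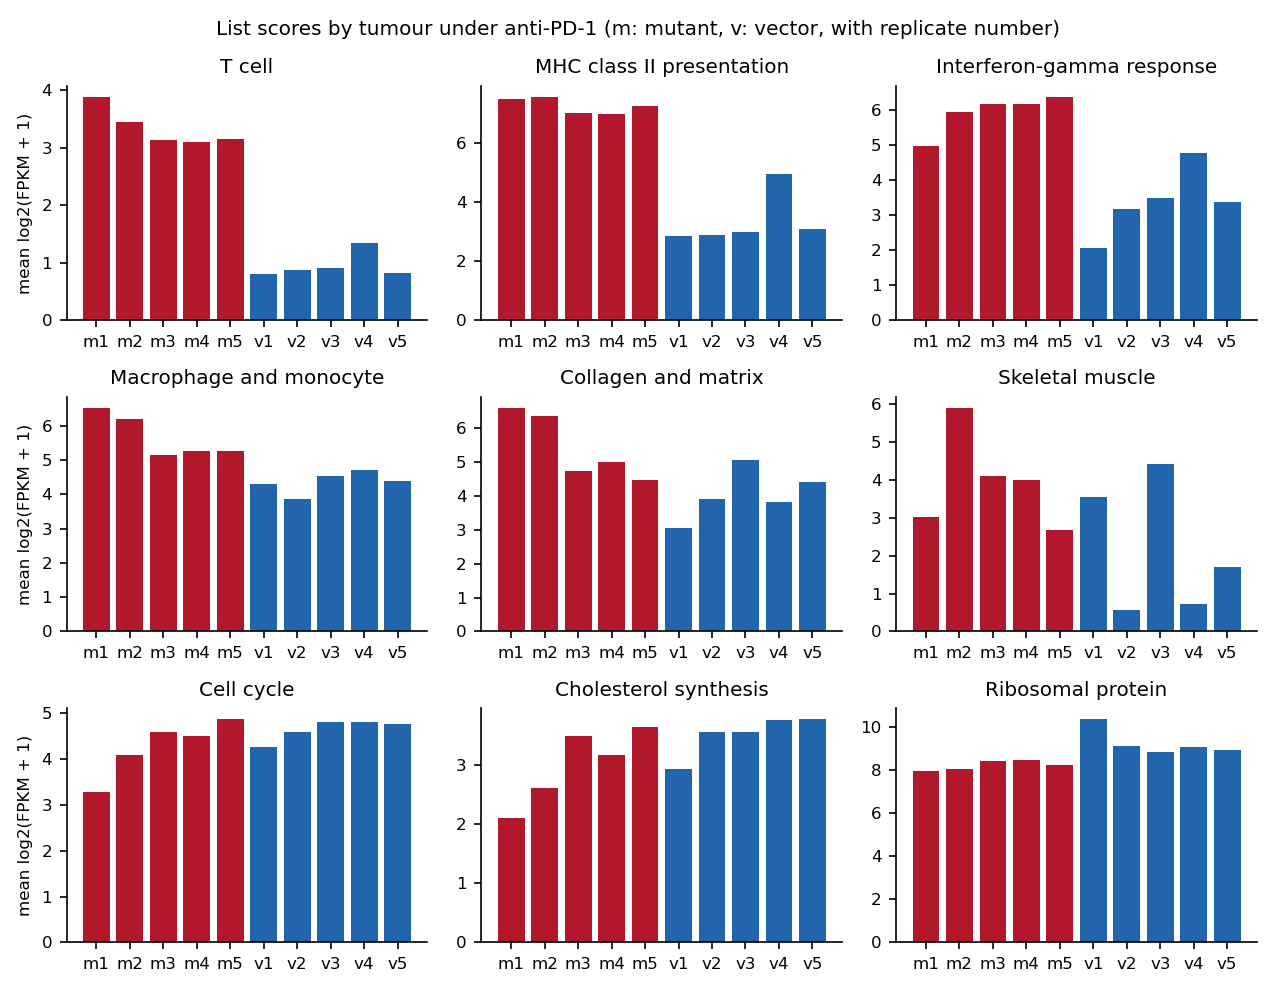
Mean log2(FPKM + 1) of the tested members of 9 gene lists in each mutant (m1 to m5, red) and vector (v1 to v5, blue) tumour under anti-PD-1. T cell and MHC class II scores of all mutant tumours exceed those of all vector tumours, collagen scores are highest in m1 and m2, and ribosomal scores are highest in v1.

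Ribosomal protein genes were the group that fell most uniformly. Of 25 tested 24 fell, 22 of them without overlap, with a median of -1.05. Rpl7 measured 244, 248, 325, 367 and 299 FPKM in mutant tumours, against 675, 636, 588, 638 and 661 FPKM in vector tumours. All mutant values lay far below all vector values, and Rpl7 fell (log2 fold change -1.12 ± 0.15, adjusted p = 2.79e-05). The size of the fall depended on the outlying libraries. Without vector replicate 1, 24 genes still fell at a median of -0.79, and without the 3 outlying libraries 22 fell at -0.53. In the fit on the 10 libraries alone 13 fell. Ribosomal protein genes have many processed copies in the genome that can share their reads.

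ATF4 is the factor of the integrated stress response. Of 19 ATF4 genes 11 fell, 7 did not pass and 1 rose, with a median of -0.78. Chac1, which breaks down glutathione, measured 1.28, 3.25, 7.28, 5.6 and 6.03 FPKM in mutant tumours, against 9.61, 13.3, 9.68, 11.9 and 11.7 FPKM in vector tumours. It fell (log2 fold change -1.31 ± 0.28, adjusted p = 0.00157). Shmt2, which feeds one-carbon metabolism in mitochondria, measured 14.8, 25.8, 43.9, 43.8 and 51.1 FPKM in mutant tumours, against 83.1, 60.4, 64.1, 79.96 and 60.7 FPKM in vector tumours. Mutant values were lowest in replicates 1 and 2, and Shmt2 fell (log2 fold change -1.10 ± 0.23, adjusted p = 0.00149). Atf3, also an immediate stress gene of immune cells, was the member that rose, by 1.81 ± 0.37 (adjusted p = 0.00121). Among 10 amino acid transporters 3 fell and 2 rose, where 15.1% of all genes fell and 17.8% rose. Slc1a5, the glutamine transporter ASCT2, fell (log2 fold change -0.80, adjusted p = 0.000917) and so did Slc1a4 (log2 fold change -1.07, adjusted p = 0.00316). Without the 3 outlying libraries Chac1 fell with -0.85, Shmt2 with -0.49 and Slc1a4 with -0.58, and Atf3 rose by 1.07. Of the ATF4 genes 3 fell without these libraries, at a median of -0.26, and 6 fell in the fit on the 10 libraries alone. No transporter rose without the 3 libraries, and 3 fell. Of 16 unfolded protein response genes 1 fell and none rose, below both shares of all genes.

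Cholesterol synthesis and cell division genes were lower in part. Of 19 cholesterol genes 9 fell and none rose, with a median of -0.525. Sqle, squalene epoxidase, measured 1.94, 5.36, 14.5, 12 and 16.8 FPKM in mutant tumours, against 11.9, 19, 17.4, 21.1 and 21.3 FPKM in vector tumours. Its groups overlapped, with mutant replicate 1 lowest, and Sqle fell (log2 fold change -1.16 ± 0.29, adjusted p = 0.00502). Cyp51, a sterol demethylase, fell (log2 fold change -1.17, adjusted p = 0.00732) and did not pass without the 3 outlying libraries, at -0.60. Of 30 cell cycle genes 9 fell and none rose, with a median of -0.46. Mcm6, a subunit of the replicative helicase, measured 12.7, 24.7, 35.2, 31.2 and 42 FPKM in mutant tumours, against 42.9, 43.3, 47.4, 50.4 and 53.2 FPKM in vector tumours. It fell (log2 fold change -0.86 ± 0.19, adjusted p = 0.0023). Bub1, a spindle checkpoint kinase, fell (log2 fold change -0.75, adjusted p = 0.0154) and did not pass without mutant replicate 1 (adjusted p over the alternatives 0.0042 to 0.0925). Mki67, the proliferation marker, did not pass, at -0.19 (adjusted p = 0.557), and its values overlapped widely. Sqle stood at -0.55 without the 3 outlying libraries, Mcm6 at -0.52 and Bub1 at -0.43. Without these libraries 4 cholesterol and 2 cell cycle genes fell, without vector replicate 1, 14 of each, and in the fit on the 10 libraries alone 2 and 1. Of all 13982 genes, 1619, 3511 and 724 fell in these settings, in that order, against 2112 in the fit reported.

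DNA polymerase and repair genes are described because POLE is a polymerase gene. Of 12 replicative polymerase genes 6 fell, Pole among them, and none rose, while 2 fell without the 3 outlying libraries, at a median of -0.18, and 2 in the fit on the 10 libraries alone. Pole3, the histone-fold subunit of polymerase epsilon, measured 18.9, 23.3, 27.2, 24.7 and 28.6 FPKM in mutant tumours, against 44.7, 35.5, 33.8, 35.8 and 33.2 FPKM in vector tumours. It fell without overlap (log2 fold change -0.58 ± 0.12, adjusted p = 0.00125). Of 30 DNA repair genes 5 fell and none rose, with a median of -0.23, a share near the 15.1% of all genes that fell. Xrcc5, the Ku80 subunit of end joining, measured 3.85, 6.51, 11.5, 9.32 and 11.4 FPKM in mutant tumours, against 19.9, 19.3, 20.3, 20.8 and 21 FPKM in vector tumours. Its vector values lay in a narrow band above all mutant values, and Xrcc5 fell (log2 fold change -1.30 ± 0.18, adjusted p = 4.72e-05). Ercc1, a nuclease subunit of excision repair, measured 7.78, 17.3, 44.1, 41.7 and 27.4 FPKM in mutant tumours, against 63.9, 58.7, 58, 49.9 and 57.7 FPKM in vector tumours. It fell (log2 fold change -1.34 ± 0.29, adjusted p = 0.00179). The single-strand break repair gene Xrcc1 (log2 fold change -0.53, adjusted p = 0.00191) and Xrcc6, the Ku70 subunit (log2 fold change -0.67, adjusted p = 0.00715), also fell. Xrcc6 did not pass without the 3 outlying libraries, at -0.28. Pole3 stood at -0.36 without these libraries, Ercc1 at -0.63 and Xrcc1 at -0.33, and Xrcc1 did not pass in the 10 libraries alone. Without vector replicate 1, 14 of the 30 repair genes fell, and so did 3511 of all 13982 genes, against 2112 with that library kept. Of 19 p53 target genes 6 rose and 2 fell, where 17.8% of all genes rose and 15.1% fell.

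Metabolic and growth factor lists had few members past the threshold. Over all genes tested, 17.8% rose and 15.1% fell. The hypoxia and glycolysis, oxidative phosphorylation, and AP-1 and ERK output lists lay below both shares. Of 26 tested entries for hypoxia and glycolysis 3 rose and none fell, all 3 of them phosphofructokinase genes or regulators. Pfkfb3, which makes the activator of phosphofructokinase, measured 4.28, 7.13, 10.9, 11.4 and 11.4 FPKM in mutant tumours, against 0.0279, 2.15, 4.17, 3.11 and 1.99 FPKM in vector tumours. It rose by 1.60 ± 0.36 (adjusted p = 0.00239). Pfkp rose by 1.04 (adjusted p = 0.00576) and Pfkfb4 by 0.94 (adjusted p = 0.00329), and Pfkfb4 did not pass without the 3 outlying libraries, at 0.64. Of 24 oxidative phosphorylation genes 3 fell, among them Atp5b (log2 fold change -0.51, adjusted p = 0.0159), which did not pass under quantile normalization, in the 10 libraries alone or without the 3 outlying libraries, at -0.25. Of 23 AP-1 and ERK output genes 2 rose and 2 fell. Dusp1, a phosphatase of MAP kinases, rose by 1.79 (adjusted p = 0.00413) and Fos by 1.996 (adjusted p = 0.00732), and Fos did not pass without the 3 outlying libraries, at 1.33. Of 7 EGF receptor ligand genes 2 fell, Areg (log2 fold change -1.41, adjusted p = 0.00417) and Hbegf (log2 fold change -1.27, adjusted p = 0.0193). Hbegf did not pass without the 3 outlying libraries, at -0.87, without mutant replicate 1, with no model term for title style or with the muscle covariate (adjusted p over the alternatives 0.0051 to 0.0894). Without vector replicate 1 all 7 ligand genes fell, and so did 3511 of all 13982 genes, against 2112 with that library kept.

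The largest single falls were in genes outside most of the lists. Cldn6, a tight junction claudin of embryonic epithelium, measured 0.836, 1.72, 6.64, 2.53 and 6.62 FPKM in mutant tumours, against 21.3, 20.01, 46.3, 24.7 and 39.2 FPKM in vector tumours. It was lowest in mutant replicates 1 and 2, and fell by the most of all genes the naming rule covers (log2 fold change -3.01 ± 0.34, adjusted p = 8.54e-06). Its neighbour on chromosome 17, Cldn9, fell too (log2 fold change -1.95, adjusted p = 0.000297). Plet1, a surface protein of epithelial progenitors, measured 0.774, 1.62, 4.63, 4.93 and 1.85 FPKM in mutant tumours, against 8.79, 19.98, 36.6, 15.2 and 25.6 FPKM in vector tumours. It fell without overlap (log2 fold change -2.72 ± 0.43, adjusted p = 0.000135). Ankrd1, a target of the YAP factor, measured 4.24, 5.7, 16, 18.5 and 12.2 FPKM in mutant tumours, against 50.5, 50.5, 47.4, 36.4 and 42 FPKM in vector tumours. It fell (log2 fold change -2.12 ± 0.32, adjusted p = 9.23e-05), and stood at -1.34 without the 3 outlying libraries. Chrnb1, a subunit of the muscle acetylcholine receptor, measured 1.99, 3.69, 7.61, 6.17 and 6.83 FPKM in mutant tumours, against 19, 20.8, 22.1, 19.6 and 22.3 FPKM in vector tumours. Its vector values were nearly equal, and it fell (log2 fold change -1.93 ± 0.22, adjusted p = 1.09e-05). Glod5, a glyoxalase domain gene on the X chromosome, measured 0.348, 0.754, 1.38, 1.19 and 2.27 FPKM in mutant tumours, against 17.7, 4.49, 5.15, 8.32 and 11.2 FPKM in vector tumours, a fall without overlap (log2 fold change -2.20 ± 0.34, adjusted p = 0.000117). Lgals7, a galectin, fell (log2 fold change -1.88, adjusted p = 0.0152) and did not pass without mutant replicate 1 (adjusted p over the alternatives 0.00817 to 0.141) or without the 3 outlying libraries, at -0.37. Snord100, a small nucleolar RNA, fell (log2 fold change -2.11, adjusted p = 0.0268) and did not pass in 10 of the alternatives.

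Several genes were lower in mutant tumours under both treatments, and some were near absent there. C78283 (ENSMUSG00000106968, chromosome 5, 73946381 to 73948376) measured 0, 0, 0, 0 and 0.0769 FPKM in mutant tumours, against 0.959, 7.28, 4.93, 5.63 and 7.46 FPKM in vector tumours under anti-PD-1. Under PBS it measured 0, 0, 0, 0 and 0 FPKM in mutant tumours, against 8.21, 5.83, 7.08, 5.42 and 6.47 FPKM in vector tumours. It was listed at 0 in 4 of the 5 mutant tumours given anti-PD-1, and fell under both treatments, with log2 fold changes of -2.48 (adjusted p = 7.19e-06) and -2.91 (adjusted p = 1.29e-05). Zfp988 (ENSMUSG00000078498, chromosome 4, 147305674 to 147333734), a zinc finger gene, measured 0.0964, 0.174, 0.26, 0.259 and 0.318 FPKM in mutant tumours, against 1.57, 2.9, 1.96, 2.76 and 2.4 FPKM in vector tumours under anti-PD-1. Its PBS values were 0.24, 0.149, 0.253, 0.326 and 0.414 FPKM in mutant tumours, against 2.82, 2.04, 2.67, 2.36 and 1.75 FPKM in vector tumours. It fell under both, with log2 fold changes of -1.43 (adjusted p = 1.24e-06) and -1.38 (adjusted p = 1.29e-05). The zinc finger genes Zfp978 and Zfp985 lie on chromosome 4 with Zfp988, and such clustered copies can share reads. Zfp978 fell under both treatments, with -1.50 (adjusted p = 3.22e-05) and -1.39 (adjusted p = 0.00132), while Zfp985 fell under anti-PD-1, with -2.25 (adjusted p = 0.000145), and did not pass under PBS, at -1.05 (adjusted p = 0.195). Under anti-PD-1 Zfp985 stood at -1.44 without the 3 outlying libraries. Masp1, a protease of the lectin pathway, had -1.48 (adjusted p = 1.37e-05) and -1.66 (adjusted p = 6.85e-05). Dusp9, a MAP kinase phosphatase, had -1.77 (adjusted p = 5.4e-06) and -1.28 (adjusted p = 0.00152). Casc4 had -1.06 (adjusted p = 2.66e-05) and -1.03 (adjusted p = 0.000704), and Ccnb1ip1, a ubiquitin ligase of meiosis, -1.53 (adjusted p = 1.09e-05) and -1.16 (adjusted p = 0.00196). Oplah, which recycles glutathione as oxoprolinase, had -2.43 (adjusted p = 0.00156) and -2.62 (adjusted p = 0.0121), with mutant replicates 1 and 2 overlapping vector replicate 1.

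**Figure D4:**
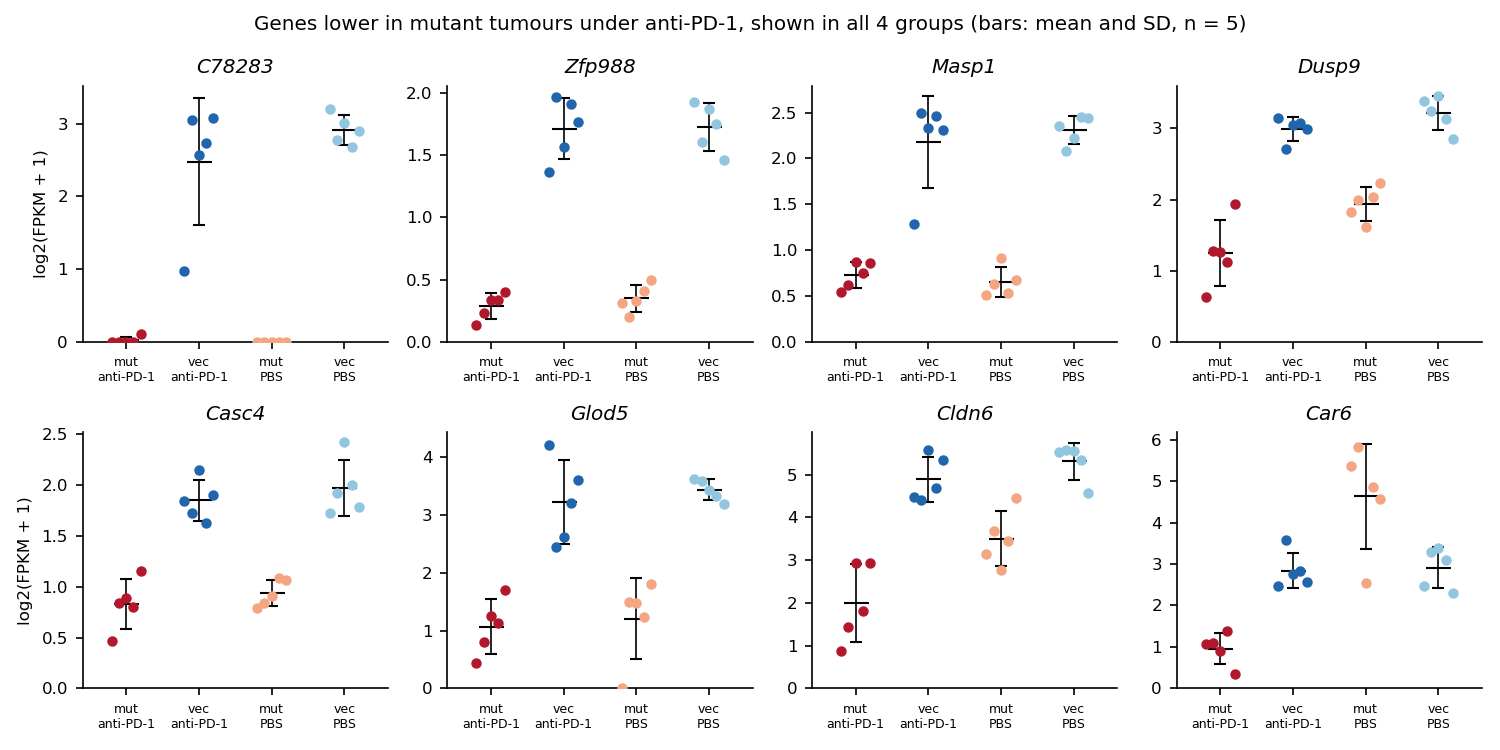
Level of 8 genes as log2(FPKM + 1) in all 4 groups, mutant left of vector under anti-PD-1 and then under PBS, with 1 point per tumour and bars for mean and SD. C78283, Zfp988, Masp1, Dusp9, Casc4, Glod5 and Cldn6 are lower in mutant tumours under both treatments, and Car6 is lower under anti-PD-1 and higher, without passing, under PBS.

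Set beside PBS, the genotype difference under anti-PD-1 involved more genes, by a margin that depended on the settings. Under PBS 203 of 13982 genes (1.45%) passed, 74 higher (0.529%) and 129 lower (0.923%), and the count at an unadjusted p under 0.05 was 1536. The 203 was unstable, at 1643 without the 3 outlying anti-PD-1 libraries, 2710 with sample weights and 12 among the M-titled libraries. In the same settings 3246, 5144 and 3912 genes passed under anti-PD-1. With each comparison fitted on its own 10 libraries, 924 genes passed under PBS and 2343 under anti-PD-1. The 5 mutant and 5 vector values under PBS did not overlap for 1265 genes (9.05%), against 2789 (19.9%) under anti-PD-1. The 2 comparisons share no library, but 1 fit gave both, with a shared spread and title-style term for each gene. Their calls are therefore not independent. Of the 203 genes 133 (65.5%) also passed under anti-PD-1 in the same direction, which is 2.89% of the 4601, and 1 passed in the opposite one. Of all genes tested, 32.9% passed under anti-PD-1 in either direction. Of the 4601 genes 3315 (72%) had the same sign under PBS, against 8470 (60.6%) of all genes.

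Genes higher under both treatments included interferon-gamma targets. Ubd was already higher under PBS, with 2.89, 8.04, 26.8, 12.3 and 6.66 FPKM in mutant tumours, against 0.705, 0.08, 0.219, 0.472 and 0.192 FPKM in vector tumours. Its difference under PBS was 2.93 (adjusted p = 0.0019) and that under anti-PD-1 was larger by 0.37 (adjusted p = 0.765), which did not pass. Under PBS 7 of 24 interferon-gamma response genes and 6 of 9 class II genes rose, with medians of 1.70 and 2.56. Mutant PBS replicate 3 had the highest scores of its group for these lists, 5.51 and 6.36. The other mutant PBS tumours scored 2.84 to 4.59 and 2.71 to 4.23. H2-Eb1 was at 7.42 to 194 FPKM in mutant tumours, against 1.65 to 4.58 FPKM in vector tumours under PBS, a difference of 2.74 (adjusted p = 0.0256). Tgtp1 rose under PBS by 2.90 (adjusted p = 0.0119) and Cxcl9 by 3.30 (adjusted p = 0.0125). The others named by the rule were Clic5, an intracellular chloride channel gene, the carboxylesterase Ces1f, the orphan receptor Gpr141 and Atp2a3, a calcium pump of blood cells. Their differences under anti-PD-1 and PBS were 1.74 and 1.65 (adjusted p = 0.0106) for Clic5, 1.66 and 1.78 (adjusted p = 0.0055) for Ces1f, 1.56 and 1.33 (adjusted p = 0.00566) for Gpr141, and 1.20 and 0.89 (adjusted p = 0.0121) for Atp2a3.

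The difference between the treatments was tested as an interaction, the anti-PD-1 difference minus the PBS difference. It passed for 1308 genes (9.35%), of which 1035 (7.4%) were positive and 273 (1.95%) negative. T cell genes led the positive ones. All 16 T cell genes, 18 of 22 CD8 and cytotoxic genes and 9 of 10 NK genes passed with a positive value. Cd28 measured 0.0665, 0.221, 1.17, 0.163 and 0.129 FPKM in mutant tumours, against 0.072, 0.0782, 0.0912, 0.109 and 0.0346 FPKM in vector tumours under PBS, a difference of 0.27 (adjusted p = 0.563). The interaction of Cd28 was 1.61 (adjusted p = 0.00183). For Cd3d it was 2.39 (adjusted p = 0.00214), for Zap70 1.85 (adjusted p = 0.00183), for Trpm2 1.54 (adjusted p = 0.00183) and for Ccl5 4.04 (adjusted p = 0.00236). Complement genes passed in 13 of 16 and type I interferon genes in 13 of 25. Of the interferon-gamma list 2 of 24 and of the class II list 1 of 9 passed, Ciita at 2.10 (adjusted p = 0.0119), so for most of these genes a change of the genotype difference with treatment was not shown. The PBS side leaned on mutant PBS replicate 3, which scored highest of its group for both lists. Without that tumour the interaction passed for 1878 of all genes tested. The 5 clustered granzymes Gzmc to Gzmg fell under PBS, Gzmc with a log2 fold change of -3.40 (adjusted p = 0.013) and Gzmf with -3.71 (adjusted p = 0.0292), and the interaction of Gzmf was 4.36 (adjusted p = 0.0291). The interaction passed for 387 genes without the 3 outlying libraries.

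Of the 273 negative interactions 224 were among the genes that fell under anti-PD-1, and 15 were among the 74 genes that rose under PBS. Car6, a secreted carbonic anhydrase, measured 1.1, 1.13, 0.857, 1.62 and 0.278 FPKM in mutant tumours, against 4.57, 10.9, 5.73, 6.13 and 4.94 FPKM in vector tumours under anti-PD-1. Under PBS it measured 40.04, 56, 4.81, 27.9 and 22.8 FPKM in mutant tumours, against 4.55, 8.85, 9.44, 7.51 and 3.9 FPKM in vector tumours. It fell under anti-PD-1 (log2 fold change -1.84, adjusted p = 0.00408), its PBS difference was 1.72 (adjusted p = 0.0591) without passing, and the interaction was -3.57 (adjusted p = 0.00378). Areg, an EGF receptor ligand, measured 1.02, 1.82, 2.92, 4.51 and 1.34 FPKM in mutant tumours, against 4.56, 9.45, 9.974, 4.98 and 6.59 FPKM in vector tumours under anti-PD-1. Under PBS it measured 41, 26.4, 7.08, 26 and 23 FPKM in mutant tumours, against 5.24, 9.5, 7.23, 10.8 and 8.76 FPKM in vector tumours. Its interaction was -2.74 (adjusted p = 0.00378). Angptl6, an angiopoietin-like protein, was the gene that passed in opposite directions, with -1.37 (adjusted p = 0.00281) under anti-PD-1 and 1.37 (adjusted p = 0.0298) under PBS, and its interaction was -2.73 (adjusted p = 0.0029). Soat2, which esterifies cholesterol, had an interaction of -2.14 (adjusted p = 0.00387), the neuropeptide precursor Vgf of -1.36 (adjusted p = 0.0034) and Rpp38, an RNase P subunit, of -1.02 (adjusted p = 0.00525). Without the 3 outlying libraries Angptl6 and Soat2 did not pass under anti-PD-1, at -1.08 and -0.69.

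**Figure D5:**
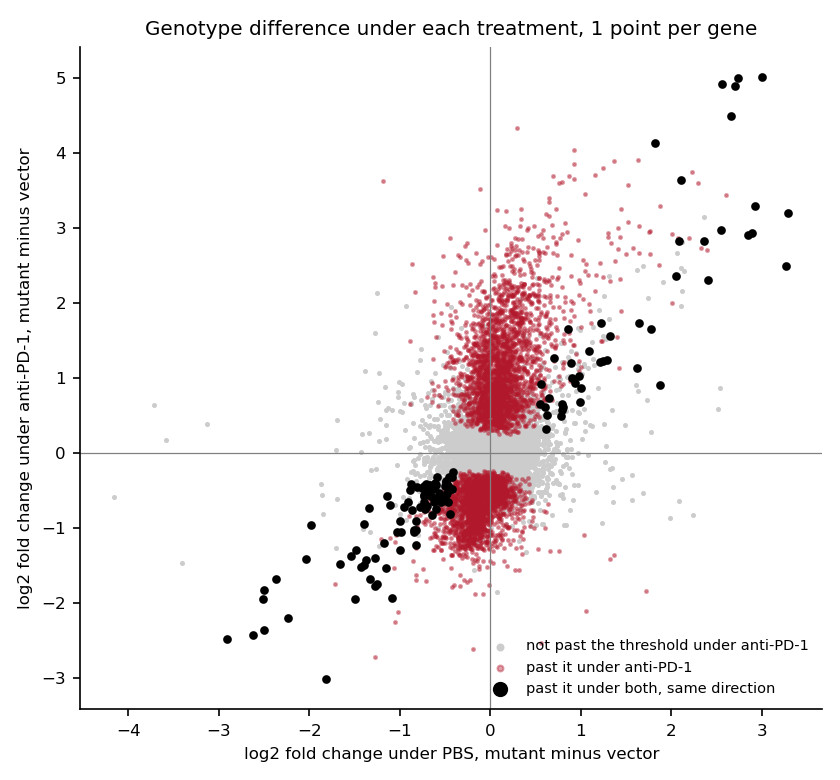
Log2 fold change (mutant minus vector) of each of 13982 genes under PBS (horizontal) and under anti-PD-1 (vertical), grey where not past the threshold under anti-PD-1, red where past it, and black for the 133 genes past it under both in the same direction. Many red points with a high anti-PD-1 value lie near 0 under PBS.

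By chromosome, the falls were most frequent on chromosomes 1 and 19. On chromosome 1, 219 of 871 tested genes fell (25.1%), against 15.1% of all genes, and the median log2 fold change was -0.116 under anti-PD-1 and -0.184 under PBS. On chromosome 19, 22.7% fell, with medians of -0.0985 and -0.0986. Among autosomes, rises were most frequent on chromosome 6, where 24.5% rose, and on chromosome 11, where 23% rose, against 17.8% of all genes. The medians of chromosome 11 were 0.111 and 0.0318, and those of chromosome 6 were 0.0692 and 0.0285. These shares are descriptions without a test, and DNA copy number was not measured.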

How the data were processed

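Bulk RNA of 20 tumours, 5 in each of 4 groups, was measured by RNA-seq. The deposited values are FPKM per gene, made by the authors, and the submitters' processing notes name FastQC, STAR 2.5, Cuffnorm, DESeq and mm10. The unit was taken from these tools and the values, and no step of single reads was found in low values (highest share of low genes at 1 ratio 1.685%), so depth is unknown and no count test was run. The 20 tables hold 55335 genes, of which 55154 were given symbols and GRCm38 coordinates from GENCODE vM21. No pair of libraries was identical, and the highest Spearman correlation of a pair was 0.929.

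log2(FPKM + 1) was fitted in limma 3.58.1 (R 4.3.3, trend) over all 20 libraries, with 4 group means and a term for the style of the sample title, with Benjamini-Hochberg adjustment over 13982 genes. All tests are two-sided. The fit was tested on simulated data with known changes. Alternatives changed the log offset, filter, scaling, title term, libraries, variance model and a muscle covariate. Lists overlap in members and are described by counts and medians, with no test of a list. The members and lists were chosen with earlier results of these data known. Genes named were the 12 largest changes, the 6 smallest p in each direction for each contrast, up to 4 members per list and a panel; genes that make up a count of 5 or fewer were named after their values were seen. Promoters come from RefSeq tables (GRCm38.p6), read in Python 3.11.15, and motifs were searched on both strands. A few genes are not reported here.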

Additional observations from a re-analysis of the deposited data

Results flagged for a closer look

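In each group of 5 tumours under anti-PD-1, the gap of the highest or lowest value to its nearest neighbour was divided by the whole range, on the log2(FPKM + 1) scale, and a ratio above 0.71 marked a tumour as far from the others. Of 284 groups of 5 for the 142 genes named, 28 were marked in this way, and chance marks about 1 in 20 groups. Mutant replicate 1 was the highest of its group, with a ratio of 0.738 for Zap70, 0.801 for Cxcr6, 0.837 for Gzmb and 0.736 for H2-D1. Mutant replicate 1 was the lowest of its group, with a ratio of 0.81 for Ifng and 0.75 for Gbp5. Mutant replicate 4 was the highest of its group, with a ratio of 0.764 for Pdcd1lg2. Mutant replicate 5 was the highest of its group, with a ratio of 1.0 for C78283. Vector replicate 1 was the highest of its group, with a ratio of 0.804 for Lgals7 and 0.75 for Pole3. Vector replicate 1 was the lowest of its group, with a ratio of 0.817 for C3, 0.712 for Il27, 0.757 for C78283, 0.854 for Masp1, 0.739 for Zfp978, 0.741 for Clic5 and 0.742 for Ltbp1. Vector replicate 3 was the highest of its group, with a ratio of 0.763 for Jchain and 0.755 for Col1a1. Vector replicate 3 was the lowest of its group, with a ratio of 0.728 for Lag3. Vector replicate 4 was the highest of its group, with a ratio of 0.864 for Zap70, 0.839 for Xcr1, 0.778 for H2-Eb1, 0.843 for H2-Aa, 0.878 for H2-Ab1, 0.776 for Cd74 and 0.74 for Ciita. Vector replicate 4 was the lowest of its group, with a ratio of 0.803 for Soat2.

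List scores, the mean log2(FPKM + 1) of the tested members, were treated in the same way. The score of mutant replicate 1 was highest, at a ratio of 0.808 for the CD8 and cytotoxic list. The score of vector replicate 1 was highest, at a ratio of 0.794 for the ribosomal protein list. The score of vector replicate 1 was lowest, at a ratio of 0.762 for the DNA repair list, 0.82 for the p53 target list, 0.825 for the unfolded protein response list, 0.731 for the cholesterol synthesis list, 0.839 for the AP-1 and ERK output list and 0.854 for the TGF-beta list. The score of vector replicate 4 was highest, at a ratio of 0.819 for the T cell list and 0.885 for the MHC class II presentation list.

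The genotype difference itself differed between treatments, tested as the interaction in limma, for 64 of the 142 genes named. Over all 13982 genes tested the interaction passed for 1308 (9.35%). Genes were named in part for a small interaction p or a large anti-PD-1 difference, so the 64 is no estimate of a share. The values that follow are the log2 difference under anti-PD-1 minus that under PBS, and each has an adjusted p under 0.05. For T cell and cytotoxic genes the value was 2.39 for Cd3d, 1.61 for Cd28, 1.85 for Zap70, 2.54 for Trac, 2.53 for Trbc2, 2.40 for Cd8a, 2.73 for Cd8b1, 1.44 for Cd4, 2.93 for Cxcr6, 2.51 for Ms4a4b, 1.74 for Ifng, 3.38 for Gzmb, 2.77 for Prf1, 3.11 for Nkg7, 4.36 for Gzmf and 1.43 for Klre1. For checkpoint, regulatory T cell and B cell genes the value was 2.81 for Pdcd1, 2.60 for Pdcd1lg2, 2.14 for Lag3, 1.97 for Havcr2, 1.67 for Ctla4, 1.91 for Cd96, 1.04 for Il2ra, 1.64 for Cd22 and 1.41 for Jchain. For myeloid, complement and interferon genes the value was 1.57 for Xcr1, 1.39 for Ccr7, 3.02 for Adgre1, 2.28 for Mertk, 2.36 for Ctss, 2.31 for Serping1, 2.99 for C3, 2.51 for C4b, 1.54 for Trpm2, 2.39 for Csf3r, 2.10 for Ciita, 1.87 for Irf7, 1.79 for Ifit3, 2.56 for Fgl2, 1.59 for Samhd1, 1.88 for Nos2 and 1.87 for Acod1. For chemokines, cytokines and stromal genes the value was 4.04 for Ccl5, 1.30 for Cxcl16, 2.82 for Cxcl13, 1.47 for Il27, 2.05 for Il18bp, 1.85 for Thy1, 1.93 for Icam1 and 1.26 for Pparg. The negative values were -3.57 for Car6, -2.74 for Areg, -2.73 for Angptl6, -2.14 for Soat2, -1.36 for Vgf, -1.02 for Rpp38, -3.17 for Snord100, -1.97 for Chac1, -1.21 for Shmt2, -1.06 for Slc1a5, -1.17 for Slc1a4, -1.69 for Ercc1, -0.559 for Xrcc1 and -1.81 for Hbegf. Without the 3 outlying libraries the interaction passed for 387 genes of all tested, against 1308 with them.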

How the results depend on the processing

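All alternatives were listed with earlier results of these data known. Of 142 genes named 132 passed, and 89 of these kept both direction and call under every alternative run. With 5 FPKM as the filter 2993 genes passed, 1328 higher and 1665 lower, so falls then outnumbered rises. With no filter 4353 were higher and 2045 lower. The 10 libraries of the comparison alone gave 2343 calls, 1619 higher and 724 lower. Without the 3 outlying libraries 1627 were higher, and quantile normalization gave 3625 lower. Leaving out 1 library at a time gave 1348 to 3511 lower genes, the lowest without mutant replicate 1 and the highest without vector replicate 1. Under PBS, 98 genes passed with the 5 FPKM filter, 924 with the PBS libraries alone, 2710 with sample weights, 1643 without the 3 libraries, 12 among M-titled libraries and 83 to 215 with 1 library left out. For the interaction the counts were 663 with the 5 FPKM filter, 3214 with sample weights, 387 without the 3 libraries and 688 to 2247 with 1 library left out, the extremes without mutant anti-PD-1 replicate 2 and vector anti-PD-1 replicate 1. Non-overlapping genes numbered 1819 with the 5 FPKM filter, 4904 without the 3 libraries, 6687 among M-titled and 6976 among number-titled libraries, where groups are smaller and overlap is rarer by construction.

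Lists with at least 50% of tested members lower numbered 4, namely ribosomal protein, ATF4 stress response, replicative polymerase and keratinocyte (1 gene). The number was 2 with no filter, 7 with upper-quartile scaling, 8 with quantile normalization, 1 with the 10 libraries alone, 1 without the 3 libraries, 2 among M-titled, 2 among number-titled libraries, 2 with the muscle covariate and 1 to 6 with 1 library left out. Lists with at least 50% of members higher numbered 23, and 18 to 25 under the alternatives.

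The sign turned for Chek2 (0.005683 with no title-style term), Arg1 (-0.09416 without the 3 libraries, -0.1658 among number-titled ones), Pdgfrb (-0.006215 among number-titled ones), Psme2 (-0.00562 among M-titled ones) and Mki67 (0.09322 without the 3 libraries, 0.07609 among number-titled ones, -0.3247 to 0.0649 with 1 library left out). Gzmf ran from -0.2012 to 1.546 with 1 library left out. The cause was not tested. Of these, only Pdgfrb passed in the fit reported. Among M-titled libraries alone, with 2 mutant tumours, Gzmb, Prf1, Psmb9, Igtp, Gbp5, Cxcl9, Cxcl10, Tgtp1, Ccl12, Il11, Thbs2, Lyve1, Krt19, Oplah, Car6, Areg, Snord100, Pfkfb3, Pfkp and Clic5 did not pass. Among number-titled libraries alone, with 2 vector tumours, Vgf, Chac1, Atf3, Slc1a5, Sqle, Cyp51, Krt19, Il11, Col1a1, Fbn1, Pdgfrb, Pecam1, Mb, Fos, Lgals7, S100a4, Xrcc6, Atp5b, Pfkfb4 and Snord100 did not pass. No paired analysis was possible because replicate numbers follow accession order and pair no samples. Depth is unknown in FPKM, so no counting limit can be given for genes listed at 0.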
